A study of Arabidopsis thaliana with 80 samples.

Results

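Evening was set against morning in the first collection, ex1, of a series of RNA sequencing libraries from Arabidopsis thaliana rosettes. The members are the libraries labelled ex1, which are 22 of the 80 in the series, 10 from the evening and 12 from the morning. The contrast is the mean over 4 accessions of the evening minus morning difference within each. The labels name the times evening and morning, and the sampling windows given are 15:30 to 16:00, an afternoon window, and 10:00 to 10:30. The evening groups were Bon with 3 libraries, Moj with 2, Vel with 3 and Col-0 with 2, and the morning groups held 3 libraries each. Bon, Moj and Vel are natural accessions from southern Spain, and Col-0 is the laboratory line behind the reference genome. All plants were grown in pots in a common garden in southern Spain, with no other treatment labelled. Each library came from a pool of 5 plants, from aerial rosettes without roots (and without stalks in the reproductive stage), and p-values measure the spread between such pools from 1 garden. The labels do not pair a collection with a developmental stage. Their tag for ex1 to ex4 does not say whether it marks a sampling date or an RNA extraction, so date and extraction cannot be told apart. The later collections ex2, ex3 and ex4 (the last with Col-0 and Vel only) were sampled in the same windows and serve here to show what was particular to ex1.

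The plant circadian clock is a loop of transcriptional repressors that follow each other through the day. CCA1 and LHY, related MYB factors, peak around dawn and repress evening genes such as TOC1, GI, ELF4 and LUX. The PRR proteins PRR9, PRR7, PRR5 and TOC1 come on in turn and repress CCA1 and LHY, and ELF3, ELF4 and LUX form the evening complex, which represses PRR9 and growth genes. RVE8, RVE4 and RVE6 are relatives of CCA1 that activate afternoon and evening genes together with the LNK cofactors. CCA1 and LHY bind the evening element AAAATATCT and the CCA1-binding site AAAAATCT, and the G-box CACGTG is bound by light-response factors such as HY5 and the PIFs.

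The promoters of some of the clock genes described below are shown because they carry these letters. GI and ELF4 had no match to any of the 3 motifs within 300 bases before the start and are not shown. Each runs 5′ to 3′ up to the base before the annotated gene start, on the gene's strand, in the RefSeq TAIR10.1 assembly, and capitals mark a match to any of the 3 motifs on either strand.
CCA1, chr2:19245391-19245590, + strand: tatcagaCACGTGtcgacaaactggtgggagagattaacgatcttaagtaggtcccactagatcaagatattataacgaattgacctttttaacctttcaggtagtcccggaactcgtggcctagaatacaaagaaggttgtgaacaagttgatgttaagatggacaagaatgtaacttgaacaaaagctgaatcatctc
LHY, chr1:37872-38071, - strand: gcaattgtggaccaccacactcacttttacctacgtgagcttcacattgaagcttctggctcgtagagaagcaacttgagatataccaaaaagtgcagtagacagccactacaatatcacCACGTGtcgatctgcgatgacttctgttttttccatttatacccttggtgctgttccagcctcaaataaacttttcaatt
PRR9, chr2:19232357-19232606, + strand: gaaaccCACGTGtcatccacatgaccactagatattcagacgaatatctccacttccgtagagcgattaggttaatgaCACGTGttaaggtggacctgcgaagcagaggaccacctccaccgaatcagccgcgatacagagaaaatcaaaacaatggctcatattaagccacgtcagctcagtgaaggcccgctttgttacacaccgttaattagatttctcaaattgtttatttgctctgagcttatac
TOC1, chr5:24674763-24674962, + strand: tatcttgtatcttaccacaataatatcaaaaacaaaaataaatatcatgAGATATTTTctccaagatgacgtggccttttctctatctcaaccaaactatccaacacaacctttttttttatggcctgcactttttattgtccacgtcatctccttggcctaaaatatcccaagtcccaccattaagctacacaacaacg
LUX, chr3:17182842-17183041, + strand: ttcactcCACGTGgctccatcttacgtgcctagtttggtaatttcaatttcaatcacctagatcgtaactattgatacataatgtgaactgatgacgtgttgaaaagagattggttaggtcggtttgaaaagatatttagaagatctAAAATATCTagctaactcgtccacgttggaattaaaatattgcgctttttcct
FKF1, chr1:25508439-25508638, + strand: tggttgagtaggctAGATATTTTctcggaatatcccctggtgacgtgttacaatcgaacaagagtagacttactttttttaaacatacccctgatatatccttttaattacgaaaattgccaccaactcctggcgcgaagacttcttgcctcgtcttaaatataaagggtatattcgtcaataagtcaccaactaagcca
PRR5, chr5:8358547-8358746, - strand: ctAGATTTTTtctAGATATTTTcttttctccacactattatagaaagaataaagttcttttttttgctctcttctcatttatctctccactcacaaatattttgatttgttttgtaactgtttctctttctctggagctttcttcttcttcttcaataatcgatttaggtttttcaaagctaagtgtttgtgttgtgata
The LUX promoter holds an evening element and a G-box, that of PRR5 a CCA1-binding site and an evening element, those of TOC1 and FKF1 an evening element each, and those of CCA1, LHY and PRR9 only G-boxes. Within 300 bases before the start, the evening element was found in 6 of the 15 day and evening clock genes and 1 of the 13 morning clock genes (RVE7), against 2.84% of 26699 protein-coding genes. The G-box was found in 6 of the 13 morning clock genes and 3 of the 15 day and evening ones, against 7.18% of all, and the CCA1-binding site in 2 and 3 of them, against 7.99%. The evening element and the CCA1-binding site do not contain each other, and a match is a description of letters only.

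All 22 ex1 libraries were closest to another library of their own group. Col-0 morning replicate 3 deviated most from its group mean (SD over genes 0.353, against 0.148 to 0.240 in the other 21), and a count that moves without it is given beside that count. Outside ex1, replicate 1 of the Moj mornings of ex3 was not closest to its own group, and it enters the mean of ex2 and ex3. Leaving it out gave 12507 in place of 12143 genes in the test of ex1 against that mean. The leaf markers RBCS1A, RCA, LHCB1.1, LHCB2.1 and CA1 were abundant, with a summed level of 14.06 to 14.26 in the evening and 13.95 to 14.31 in the morning. Of 9 root markers 8 were under 1 in every ex1 library, and the remaining one, PYK10, did not pass, while all 10 flower markers were under 1, with AP1, AP3 and A9 at 0. Between 20428 and 21918 genes per ex1 library had a value above 0, and with no counts the depth behind a value is unknown. In pooled tissue, fewer cells of a type and less RNA per cell cannot be told apart.

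LHY and CCA1 were lower in the evening of ex1 by a small step. In the evening LHY was at 6.46, 6.50 and 6.25 in Bon, on the log2(value + 1) scale used for all levels here, against 7.36, 6.80 and 6.62 in the morning. Moj libraries had 5.90 and 5.91 in the evening and 6.62, 6.94 and 6.74 in the morning. Vel libraries had 5.86, 5.80 and 5.89 in the evening and 6.55, 6.12 and 6.31 in the morning. Evening lay below morning without overlap in these 3 accessions. In Col-0 the evening values 6.79 and 6.34 and the morning values 6.55, 6.55 and 6.90 overlapped. The mean difference of LHY was -0.49 ± 0.09 (log2, with the standard error from limma, as for each ± below) at an adjusted p of 2.7e-06, against -6.85 in ex2, -6.66 in ex3 and -6.76 in ex4. CCA1 fell by 0.96 ± 0.10, with 6.65, 6.86 and 7.56 in the evening and 7.57, 7.92 and 8.42 in the morning as lowest, median and highest library, the form in which 3 levels are given below. Evening and morning CCA1 did not overlap in any of the 4 accessions. Its difference was -6.21 in ex2, -6.14 in ex3 and -4.52 in ex4. The test of the ex1 difference against the mean of ex2 and ex3 gave 6.26 ± 0.10 for LHY and 5.21 ± 0.12 for CCA1 (limma adjusted p 2e-48 and 4.1e-41). The small fall of LHY and CCA1 in ex1 was known before this test. These values, and the p-values for LHY below, are therefore a description.

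**Figure D1:**
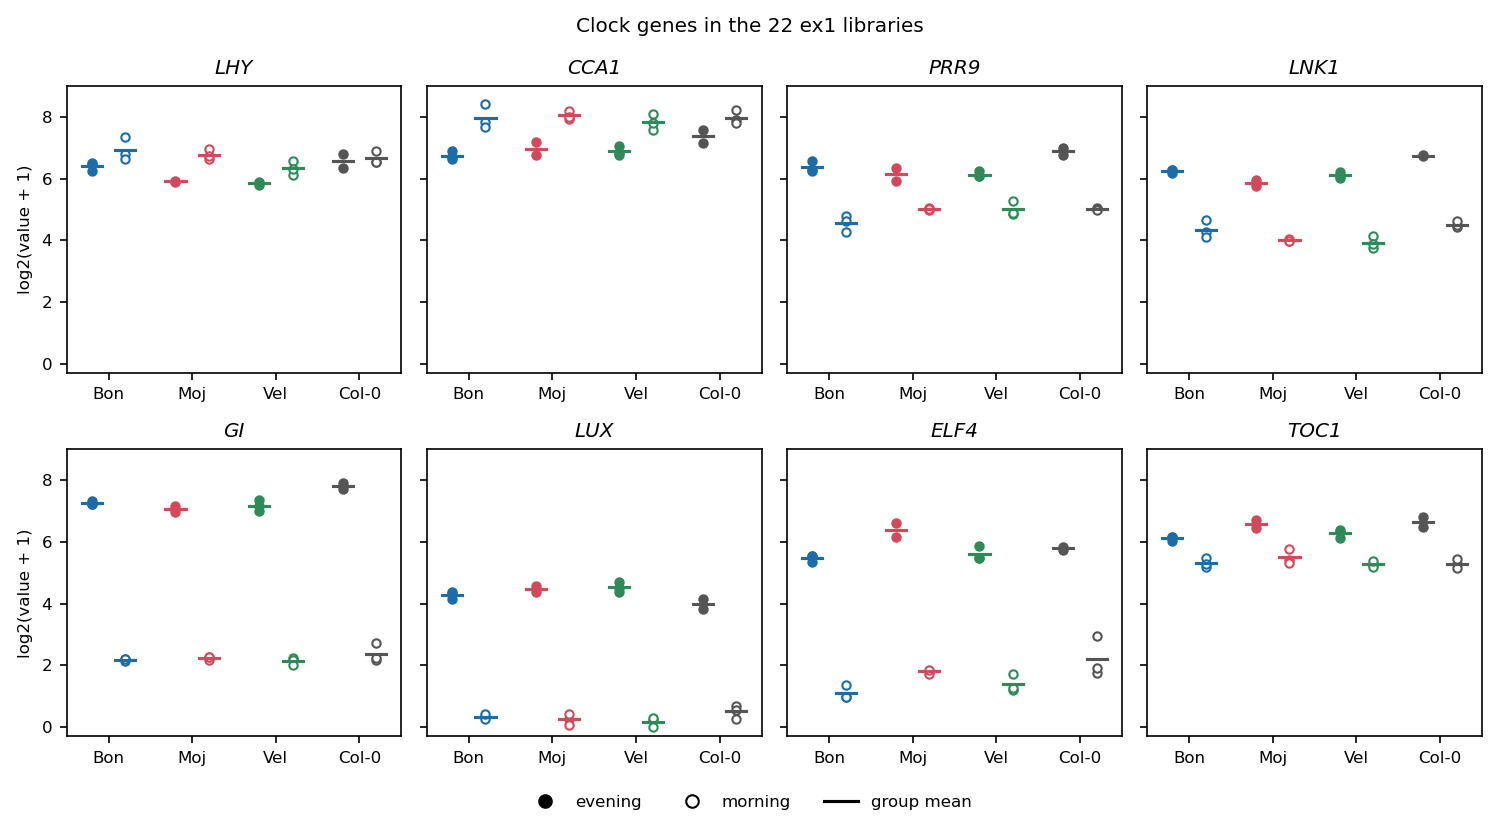
Level of 8 clock genes, log2(value + 1), in each of the 22 ex1 libraries by accession, with filled points for evening, open points for morning and bars for group means. LHY evening values run from 5.80 to 6.79 and morning values from 6.12 to 7.36, while GI runs from 6.98 to 7.90 in the evening and from 2.01 to 2.73 in the morning.

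Evening levels of LHY differed more between collections than morning levels, and sampling date and RNA extraction cannot be told apart between collections. LHY in the evening had a median of 6.08 in ex1, 0.94 in ex2, 1.45 in ex3 and 2.02 in ex4. In the morning its medians were 6.62, 7.69, 8.25 and 8.77 in the same order. Against the mean of ex2 and ex3, the ex1 level of LHY was 4.96 ± 0.08 higher in the evening, and in the morning the difference was -1.30 ± 0.07 (limma adjusted p 7e-51 and 3.4e-24). GI, the clock protein that stabilises ZTL and acts with FKF1 on photoperiod, differed in the other window. Its ex1 level was 0.85 ± 0.11 higher than later in the evening, and the morning difference was -2.76 ± 0.10.

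Over all genes, 9661 of the 20880 tested passed adjusted p under 0.05 for evening against morning in ex1 (46.3%). Of these, 4489 rose (21.5%) and 5172 fell (24.8%), and the median over all tested genes was -0.03. A change of at least 2-fold was reached by 730 of the genes that rose (3.50%) and by 457 of those that fell (2.19%). The test of ex1 against the mean of ex2 and ex3 was passed by 12143 genes (58.2%), 5765 with a higher difference in ex1 (27.6%) and 6378 with a lower one (30.5%). In ex2 and ex3 themselves 13628 (65.3%) and 12167 genes (58.3%) passed. In ex4, with Col-0 and Vel, 9860 passed (47.2%), and over the mean of ex2 and ex3 14776 passed (70.8%), 35.3% higher and 35.4% lower. Counts of list members below are read against these shares.

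Of the 13 morning clock genes, 9 fell and 4 rose in ex1, with a median of -0.43. Over ex2 and ex3, 12 fell and 0 rose, with a median of -3.38. The list holds LHY and CCA1, whose small fall in ex1 was known beforehand, so this comparison is a description. RVE1, a MYB factor that links the clock to auxin, fell most, with 3.34, 3.94 and 4.60 in the evening and 6.40, 6.94 and 7.17 in the morning (-2.88 ± 0.09). LNK3 fell by 1.81 ± 0.09 and RVE2 by 2.07 ± 0.14, both without overlap in any accession. RVE2 was the 1 morning gene that fell further in ex1 than later (-1.13 in ex2 and -1.38 in ex3). RVE8, LNK2, LNK4 and RVE4 fell by 0.40, 0.30, 0.47 and 0.43, against falls of 3.80, 3.38, 4.26 and 2.13 over ex2 and ex3. The LNK2 call was lost without Bon morning replicate 1 (-0.24) or Col-0 evening replicate 3 (-0.24), and with Moj (-0.23) or Vel (-0.30) left out of the average. The RVE8 call was lost with Moj left out (-0.22).

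The 4 morning genes that rose did so in all 4 accessions without overlap, as did 7.63% of all genes. PRR9, the first repressor of the PRR series, had 5.93, 6.26 and 6.99 in the evening and 4.27, 4.97 and 5.28 in the morning, a rise of 1.48 ± 0.10. Its differences were -3.21, -3.49 and -2.14 in ex2, ex3 and ex4, and that of ex1 minus the mean of ex2 and ex3 was 4.83 ± 0.13. AT2G46670, a CCT-motif gene whose reads may be shared with PRR9, rose by 1.33 ± 0.11, with 4.65 ± 0.14 for ex1 minus later. LNK1 rose by 2.05 ± 0.08, with evening values of 5.75, 6.19 and 6.75 and morning values of 3.74, 4.11 and 4.65. RVE6 and RVE7 rose by 1.37 ± 0.07 and 1.34 ± 0.10.

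**Figure D2:**
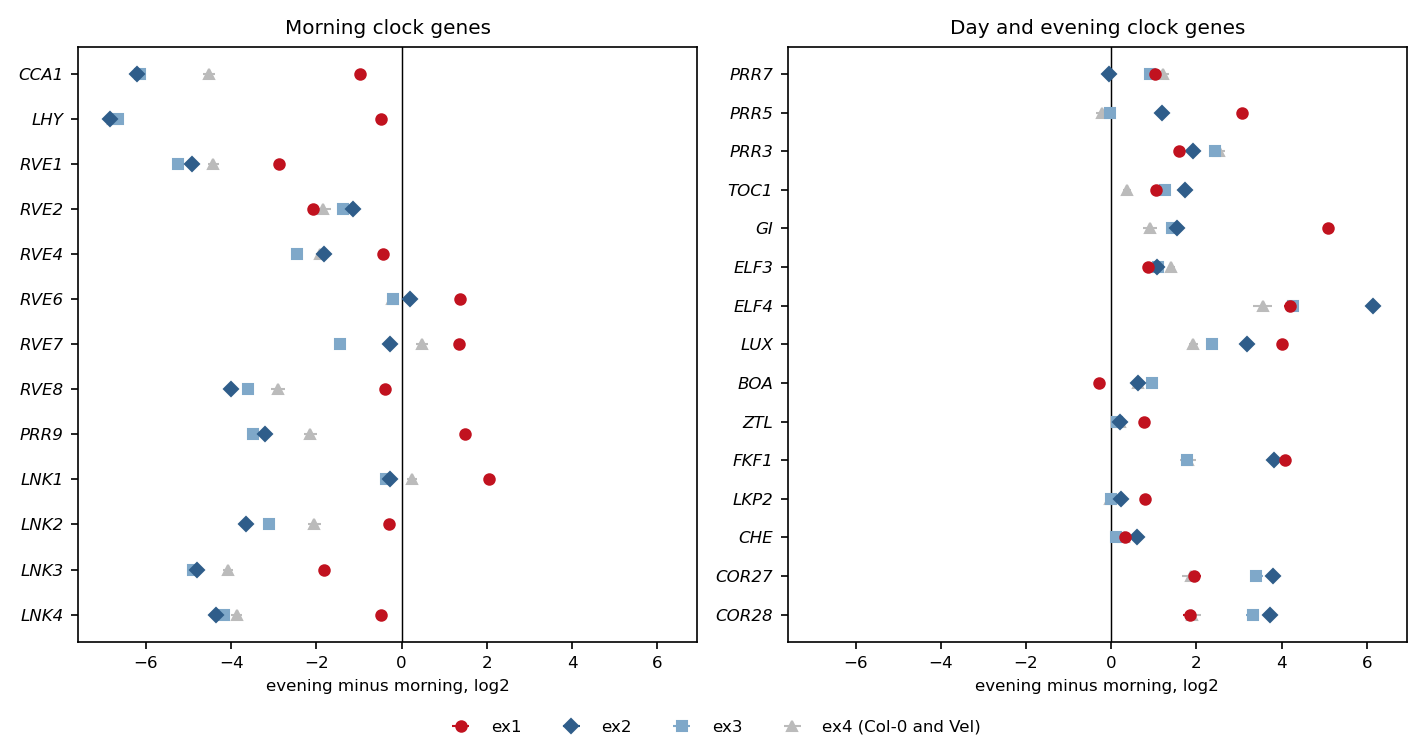
Evening minus morning difference on the log2 scale of 13 morning and 15 day and evening clock genes in each collection, with standard errors. LHY lies at -0.49 in ex1 and -6.85 in ex2, and PRR9 at 1.48 in ex1, -3.21 in ex2 and -2.14 in ex4.

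Day and evening clock genes rose: 14 of 15 passed higher in ex1 and 1 lower. For 13 of the 15 every evening library lay above every morning library in each accession, against 7.63% of all genes. GI stood at 6.98, 7.22 and 7.90 in the evening and 2.01, 2.20 and 2.73 in the morning, a 34.2-fold rise of 5.09 ± 0.12 (log2). ELF4, a small evening complex protein, had 5.34, 5.63 and 6.63 in the evening and 0.96, 1.72 and 2.95 in the morning, a rise of 4.19 ± 0.15. LUX, the complex's DNA-binding subunit, had 3.81, 4.37 and 4.70 in the evening and 0.00, 0.28 and 0.69 in the morning, a rise of 4.0 ± 0.08. LUX overlaps AT3G46650 on the other strand by 1507 bases, and the kit does not mark strand. FKF1, a blue-light receptor that removes CDF repressors, rose by 4.07 ± 0.13, and PRR5 by 3.06 ± 0.10. TOC1 rose by 1.06 ± 0.07, with 6.04, 6.38 and 6.80 in the evening and 5.17, 5.30 and 5.78 in the morning. BOA, a close relative of LUX, was the gene that fell (-0.28 ± 0.10, levels of 0.00, 0.47 and 1.18 in the evening and 0.28, 0.62 and 1.45 in the morning), and it rose by 0.62 in ex2 and 0.95 in ex3. Its ex1 call was lost without Moj evening replicate 1 (-0.25) or Col-0 evening replicate 1 (-0.20), and with Bon (-0.21) or Col-0 (-0.22) left out. The BOA call was also lost with a pseudocount of 5 (-0.08), where 14 genes of the list rose and 0 fell. CHE, a TCP factor that binds the CCA1 promoter (0.32 ± 0.13), lost its call without any one of Vel morning 3, Vel evening 1, Bon morning 1 and 3, Bon evening 2, Moj morning 2, Moj evening 1, Col-0 morning 3 and Col-0 evening 1 and 3 (0.25 to 0.32), and with Bon (0.25), Moj (0.30) or Vel (0.21) left out.

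These genes split in how ex1 compared with later. The ex1 difference was higher than later for 7 of the 15 and lower for 7. GI rose by 1.55 in ex2 and 1.42 in ex3, 3.61 less than in ex1 (limma adjusted p 3.8e-29). COR27 and COR28, which repress evening genes and freezing tolerance, rose less in ex1 (1.95 and 1.84) than later (3.61 and 3.52). ELF4 rose by 6.14 in ex2. For CHE the ex1 difference minus the later one was -0.04 ± 0.15 (adjusted p 0.86).

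Photoperiod genes were mostly lower in the evening, with 9 of 12 falling and 2 rising. COL2, a CONSTANS-like B-box gene, had 2.89, 3.45 and 3.79 in the evening and 7.93, 8.24 and 8.52 in the morning, a fall of 4.79 ± 0.10, against differences of -5.44 in ex2 and -5.64 in ex3. COL2 overlaps AT3G02370 by 771 bases and AT3G02390 by 688 bases on the opposite strand. COL1 fell by 1.55 ± 0.10, while COL9 and COL5 were the 2 that rose (1.01 ± 0.12 and 0.55 ± 0.10). COL5 fell by 1.76 over ex2 and ex3. The cycling Dof factors, repressors of CO and FT, fell together: CDF2 by 3.56 ± 0.08, CDF1 by 2.61 ± 0.12, CDF5 by 1.90 ± 0.10 and CDF3 by 0.70 ± 0.06. AT1G26790, another Dof gene, was the largest fall under the naming rule, with 1.02, 1.49 and 1.75 in the evening and 6.46, 7.07 and 7.64 in the morning (-5.63 ± 0.10). CO, the activator of the flowering signal FT, fell by 2.26 ± 0.08, against -0.16 in ex2 and -0.67 in ex3. FT itself was at or near 0 in every ex1 library (0.24 at the highest in the evening and 0.20 in the morning).

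LZF1 (BBX22), a B-box factor that promotes light responses, gave the largest rise under the naming rule, which asked for no overlap between evening and morning in any accession. Its evening values were 6.63, 7.05 and 7.30 and its morning values 0.79, 1.1 and 1.36, a 63.0-fold rise of 5.98 ± 0.10 (adjusted p 2.2e-49). The rise lay within a narrow band across accessions (5.99 in Bon, 6.12 in Moj, 5.95 in Vel and 5.84 in Col-0). In ex2, ex3 and ex4 LZF1 rose by 1.05, 1.06 and 1.71. Its evening level was 5.91 at the median in ex2, and its morning level 4.87, and the ex1 level differed from the mean of ex2 and ex3 by 1.09 ± 0.08 in the evening and -3.83 ± 0.08 in the morning. Of 8 other B-box light genes 5 fell and 2 rose, with BBX30 (-2.20), BBX25 (-1.87) and BBX31 (-1.49) falling most and BBX24, a repressor of HY5 function, rising by 0.61 ± 0.06.

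**Figure D3:**
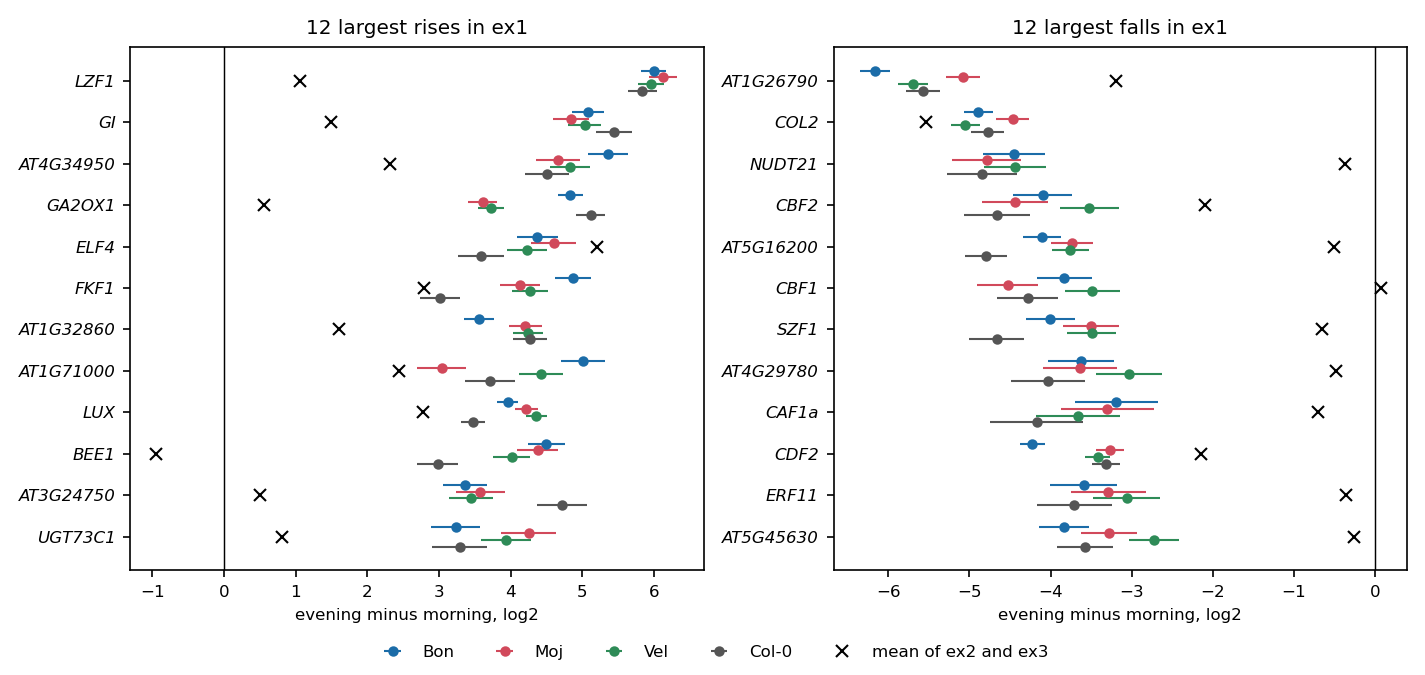
Evening minus morning difference on the log2 scale, with standard errors, for the 12 largest rises and 12 largest falls in ex1, by accession. Crosses give the mean of ex2 and ex3: BEE1 lies near 3.97 in ex1 and at -0.95 later, CBF1 near -4.03 in ex1 and at 0.07 later.

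Genes of gibberellin and brassinosteroid action moved in both directions. GA2OX1, an enzyme that inactivates gibberellin, had 3.19, 4.60 and 5.71 in the evening and 0.00, 0.26 and 0.45 in the morning (4.32 ± 0.10), and was listed at 0 in all 3 Moj morning libraries. It rose by 0.75 in ex2 and 0.37 in ex3. Of 14 gibberellin genes tested, 8 rose and 5 fell in ex1 (median 0.72): GA2OX8 by 3.20 ± 0.12, the synthesis enzyme GA20OX1 by 1.42 ± 0.10 and the receptors GID1B and GID1C by 2.02 and 1.26, while the DELLA repressor RGL1 fell by 1.20 ± 0.11. BEE1, a brassinosteroid-induced bHLH factor that promotes growth, had 4.52, 6.02 and 6.40 in the evening and 1.35, 1.90 and 2.38 in the morning. Its ex1 rise was 3.97 ± 0.14, and its differences in ex2 and ex3 were -1.34 and -0.56. Of 4 brassinosteroid synthesis genes tested, 3 rose (DWF4 by 0.63, ROT3 by 1.12 and BR6OX2 by 1.20) and CPD fell by 0.60, and over ex2 and ex3 0 rose and 3 fell.

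Of 14 growth and shade genes, 7 rose and 4 fell in ex1, against 1 and 11 over ex2 and ex3. PIF4, a bHLH factor that drives elongation, rose by 2.59 ± 0.11, with 4.69, 4.95 and 5.31 in the evening and 1.56, 2.32 and 3.30 in the morning. PIF7 and HFR1, an activator and a repressor of shade responses, rose by 1.20 ± 0.14 and 1.45 ± 0.21. Over ex2 and ex3 both went the other way, at -1.97 and -1.05. PAR1, which also represses shade growth, rose by 1.09 ± 0.10 (0.87 in Bon, 1.57 in Moj, 1.45 in Vel and 0.46 in Col-0). It depended on accession by the F test given below, a call not followed through the alternatives. The expansin EXPA8 fell by 2.77 ± 0.16 and the wall enzyme gene XTR7 by 1.41 ± 0.17. Type A response regulators, which damp cytokinin signals, gave 4 rises and 0 falls among 8 tested. With a pseudocount of 5, and in the ex1 libraries alone, they gave 4 rises and 1 fall. ARR6 rose by 2.80 ± 0.18, ARR7 by 2.28 ± 0.22, ARR15 by 1.46 ± 0.20 and ARR5 by 0.60 ± 0.16 (a call lost with Moj left out, 0.32). Auxin genes gave 4 rises and 6 falls among 15 (2 and 4 with a pseudocount of 0.1), from IAA3 at 0.75 to GH3.5 at -1.28.

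The other large rises were AT4G34950, a major facilitator transporter (4.84 ± 0.15), AT1G32860, a glycosyl hydrolase (4.07 ± 0.11), AT1G71000, a DnaJ chaperone (4.05 ± 0.16), AT3G24750, which has no annotated function (3.77 ± 0.16), and UGT73C1, a glucosyltransferase (3.67 ± 0.18). AT1G71000 ranged widely in the evening, from 2.60 to 5.35, against 0.00 to 0.68 in the morning. All 24 named rises and falls passed the test of ex1 against later, as did 58.2% of all genes. The 24 were chosen by their ex1 difference, which enters that test, so the count is a description, and among them only ELF4 and COL2 changed less in ex1 than in the mean of ex2 and ex3.

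The largest falls included cold and rapid response genes. CBF1 and CBF2, factors that switch on freezing tolerance genes, fell by 4.03 ± 0.18 and 4.18 ± 0.19. CBF1 had 0.71, 1.39 and 2.86 in the evening and 4.24, 5.70 and 7.03 in the morning, with no overlap. Its ex1 level minus that of ex2 and ex3 was 0.76 ± 0.16 in the evening and 4.86 ± 0.15 in the morning. In later collections CBF1 was low in both windows, with a median of 0.69 in the evening and 0.29 in the morning of ex2, and its difference was 0.31 there. CBF3 fell by 0.39 ± 0.15 on average, with 0.48 in Bon, -0.59 in Moj, -0.42 in Vel and -1.03 in Col-0, a call lost without any one of Vel morning 3, Vel evening 3, Bon morning 2 and 3, Bon evening 1, Moj morning 1, Moj evening 1, Col-0 morning 3 and Col-0 evening 1 (-0.31 to -0.37), or with Moj (-0.32), Vel (-0.38) or Col-0 (-0.18) left out. The 3 genes are closely related neighbours, so some reads may be shared among them. NUDT21, a nudix hydrolase, fell by 4.63 ± 0.20, with 1.84, 2.17 and 2.81 in the evening and 6.02, 6.88 and 7.65 in the morning. SZF1, a zinc finger gene induced by salt, fell by 3.92 ± 0.16, CAF1a, a deadenylase that shortens mRNA tails, by 3.58 ± 0.27, and ERF11, an ethylene response repressor, by 3.41 ± 0.22. AT5G16200 (50S ribosomal protein-like), AT4G29780 (annotated as a nuclease) and AT5G45630 (a DUF584 protein) completed the named falls, at -4.10, -3.58 and -3.35. For these and NUDT21, SZF1 and ERF11 the later mean difference lay between -0.66 and -0.27.

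Of 12 rapid stress and touch genes, 7 fell and 4 rose (median -0.99), and 2 rose with a pseudocount of 5. TCH2, a calmodulin-like touch gene, fell by 2.44 ± 0.17, WRKY33 by 2.14 ± 0.19 and WRKY40 by 2.13 ± 0.30. TCH2 had 2.13, 3.46 and 3.72 in the evening and 5.19, 5.79 and 6.31 in the morning, and rose by 0.59 in ex2. Of the 18 cold response genes 10 rose and 6 fell, and the 6 were the regulators CBF1, CBF2, CBF3, ZAT10, ZAT12 and CZF1. RD29A rose by 2.23 ± 0.20, the dehydrins LTI30 and COR47 by 2.01 ± 0.21 and 1.83 ± 0.17, and GOLS3, a galactinol synthase, by 1.88 ± 0.23. COR47 had 10.38, 11.36 and 11.79 in the evening and 8.45, 9.51 and 10.38 in the morning of ex1, and medians of 8.54 in the evening and 8.20 in the morning of ex2. GOLS3 fell by 2.64 in ex3. ZAT10, a zinc finger repressor, fell in ex1 by 2.12 ± 0.21.

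Genes of the ultraviolet and high-light list, 18 in all, gave 12 rises and 1 fall in ex1, with a median of 0.62, against 4 higher and 11 lower over ex2 and ex3. RUP1, a WD40 repressor of the ultraviolet receptor UVR8, had 3.99, 4.24 and 4.43 in the evening and 0.89, 1.29 and 1.51 in the morning (2.96 ± 0.09), against differences of -0.60 in ex2 and -0.56 in ex3. RUP2 rose by 0.83 ± 0.09. HY5, a bZIP factor central to light responses, rose by 1.46 ± 0.12, with 5.79, 6.10 and 6.37 in the evening and 4.31, 4.67 and 4.96 in the morning, and was at -0.92 over ex2 and ex3. COP1 and SPA1, which target HY5 for removal, rose by 0.56 and 0.69. UVR2, a photolyase that repairs ultraviolet damage, rose by 1.49 ± 0.11, and SIG5, a light-induced plastid sigma factor, by 1.65 ± 0.15, against -1.07 and -1.08 over ex2 and ex3. VTC2, an enzyme of ascorbate synthesis, was the 1 that fell (-0.74 ± 0.10).

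Of 24 flavonoid genes 16 rose, 0 fell and 8 did not pass in ex1 (median 0.63), against 23 rises and 1 fall over ex2 and ex3 (median 1.92). By the test of ex1 against later, the ex1 difference was below the later one for 19 of the 24 and above it for 5. The 5 were regulators. MYB12, MYB111 and MYB11, which switch on flavonol synthesis, rose by 3.45 ± 0.12, 2.70 ± 0.12 and 1.98 ± 0.14, the anthocyanin activator PAP2 by 3.23 ± 0.33 and the repressor MYBL2 by 2.19 ± 0.13. Among the enzymes, CHS, the first step of flavonoid synthesis, rose by 0.60 ± 0.15 in ex1 and 3.03 later. The late anthocyanin enzymes DFR, LDOX and UGT75C1 did not pass in ex1. DFR had 2.29, 3.37 and 7.99 in the evening and 2.26, 3.09 and 7.17 in the morning (0.48 ± 0.28, adjusted p 0.17), LDOX differed by 0.21 ± 0.25 and UGT75C1 by -0.05 ± 0.27. The DFR call appeared without Col-0 morning replicate 3 (0.66) or Col-0 evening replicate 1 (0.74). DFR was highest in Col-0, with 5.91 and 7.99 in the evening and 4.97, 4.90 and 7.17 in the morning. The 3 enzymes rose in ex2 and ex3 by 4.28, 4.48 and 3.67 on average, and stood among the 8 most negative differences of ex1 from later. AT1G03495, an acyltransferase (-0.09 in ex1, 3.55 later), DIP2, annotated as an E3 ubiquitin ligase (-1.18 in ex1, 2.46 later), and AT5G11070, without annotated function (-2.36 in ex1, 1.35 later), completed that set beside NUDT21 and CBF1.

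**Figure D4:**
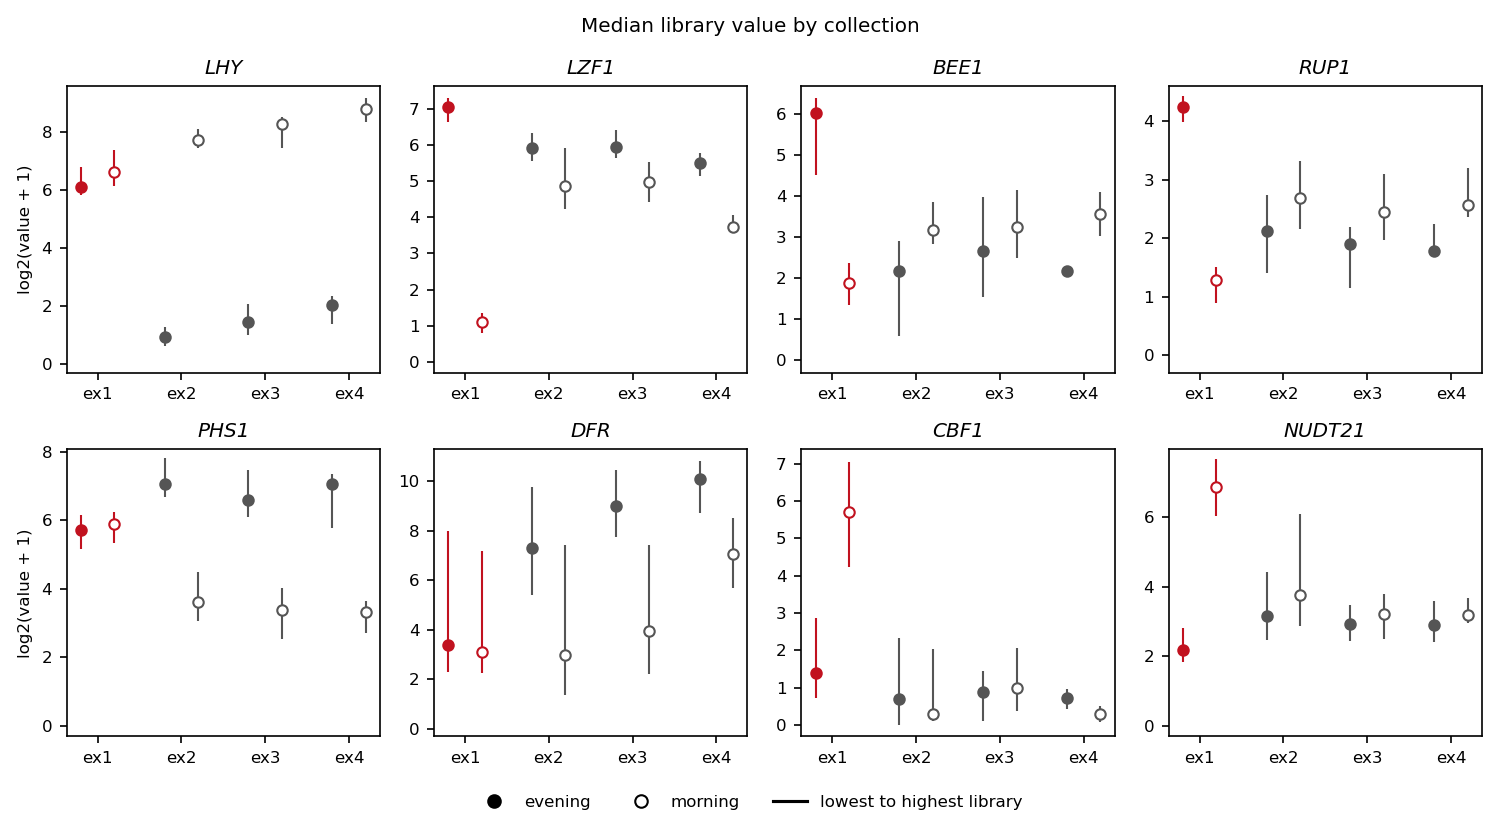
Level of 8 genes, log2(value + 1), by collection, with filled points for the evening median, open points for the morning median and bars from the lowest to the highest library. In ex1 PHS1 has medians of 5.73 in the evening and 5.90 in the morning, and in ex2 7.05 and 3.63.

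Starch breakdown, which in leaves runs at night, had lower evening differences in ex1 than later. Of 18 genes 7 rose and 3 fell (median 0.17), against 15 and 2 over ex2 and ex3 (median 1.72), and all 18 passed the test of ex1 against later with a lower difference in ex1. PHS1, a plastid glucan phosphorylase, differed by -0.12 ± 0.10 (adjusted p 0.36), with 5.17, 5.73 and 6.16 in the evening and 5.34, 5.90 and 6.24 in the morning, and rose by 3.45 in ex2 and 3.37 in ex3. The kinase GWD1 rose by 0.95 ± 0.12 and the maltose enzyme DPE2 by 0.37 ± 0.12 (a call lost with Col-0 left out, 0.20), against 3.27 and 3.29 later. BAM9, a beta-amylase relative without known activity, fell by 3.12 ± 0.11 and BAM1 by 1.31 ± 0.15, further than later (-2.50 and -0.72). Starch synthesis genes gave 5 rises and 3 falls among 14, none beyond 0.53 in size. Among 25 sugar response and transport genes 11 rose and 5 fell, led by GPT2, a plastid glucose 6-phosphate transporter (2.36 ± 0.26), and STP13, a hexose importer (1.79 ± 0.15), and TPS9, a trehalose phosphate synthase homolog, had the lowest value (-1.29). TPS11 of the same family rose by 1.64 ± 0.14 and was at -0.56 over ex2 and ex3.

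Photosynthesis genes changed little. Of 34 light-harvesting and photosystem genes 0 rose and 13 fell (against 24.8% of all genes), with differences from -0.67 to 0.03, and of these 34 genes 21 fell when the ex1 libraries were fitted alone. Of 19 Calvin cycle genes 0 rose and 6 fell. LHCB2.1, an antenna protein of photosystem II, had 9.64, 9.99 and 10.17 in the evening and 9.66, 9.86 and 10.28 in the morning (0.00 ± 0.15), and fell by 2.24 in ex2 and 3.54 in ex3. RBCS1A and LHCB1.3 held ranks 1 and 2 in every ex1 library. Because the deposited libraries share 1 distribution of values, these genes could differ only by trading places. LHCB1 and RBCS copies are near-identical and their values uncertain. Chlorophyll synthesis gave 2 rises and 3 falls among 18 (HEMA1 at 0.52, CAO at -0.68), photorespiration 1 and 3 among 10, and carotenoid synthesis 7 and 1 among 10, with the hydroxylase BCH1 at 0.89 and the epoxidase ZEP at 0.89.

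Nitrogen, sulfur and polyamine genes that passed were mostly lower in the evening. Nitrogen genes gave 7 falls and 2 rises among 15, with nitrate reductase NIA2 at -1.42 ± 0.23 and the nitrate transporter NRT1.1 at -1.32 ± 0.11. Sulfur genes gave 6 falls and 1 rise among 11 tested, with LSU1, a gene of the sulfur starvation response, at -2.07 ± 0.42 and the sulfate reduction enzymes APR2 at -1.59 ± 0.12 and APR3 at -1.01 ± 0.14. APR3 depended on accession by the F test given below (-1.55 in Bon, -0.48 in Moj, -0.34 in Vel and -1.69 in Col-0). That call was not followed through the alternatives. Polyamine genes gave 5 falls and 1 rise among 9, with SAMDC2 at -2.14 ± 0.11 (against -5.82 later), and glucosinolate genes 6 and 2 among 26, with the regulator MYB28 at -1.12 ± 0.12.

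Among stress hormones, 10 of 20 drought and abscisic acid genes rose and 4 fell: RD29B rose by 1.90 ± 0.19 and the phosphatases ABI1 and ABI2 by 0.79 and 1.25, while HB12 and the abscisic acid hydroxylase CYP707A3 fell by 2.18 and 1.75. Jasmonate genes gave 6 rises and 6 falls among 21, from ST2A at 2.00 to CYP94B3 at -1.74, and salicylic acid genes 2 and 6 among 19, with CBP60G at -1.73 ± 0.15. Heat and chaperone genes gave 5 rises and 4 falls among 20 tested (3 and 4 with a pseudocount of 5), from HSFB1 at 1.15 to HSFB2A at -1.53. Senescence genes gave 7 rises and 0 falls among 10, led by ORE1 at 1.58 ± 0.18, but 4 rises with a pseudocount of 5, and 7 rises and 2 falls in the ex1 libraries alone. Photoreceptors gave 3 of each among 9, with PHYB at 0.71 and PHYA at -0.48. DEWAX, a repressor of wax genes, rose by 1.62 ± 0.16 in ex1 and was at -0.71 over ex2 and ex3. Wax (2 rises, 1 fall of 10), cell cycle (0 and 4 of 14), iron (3 and 1 of 14, but 1 and 0 in the ex1 libraries alone) and clock output (3 and 0 of 4) gave differences between -0.53 and 1.62.

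**Figure D5:**
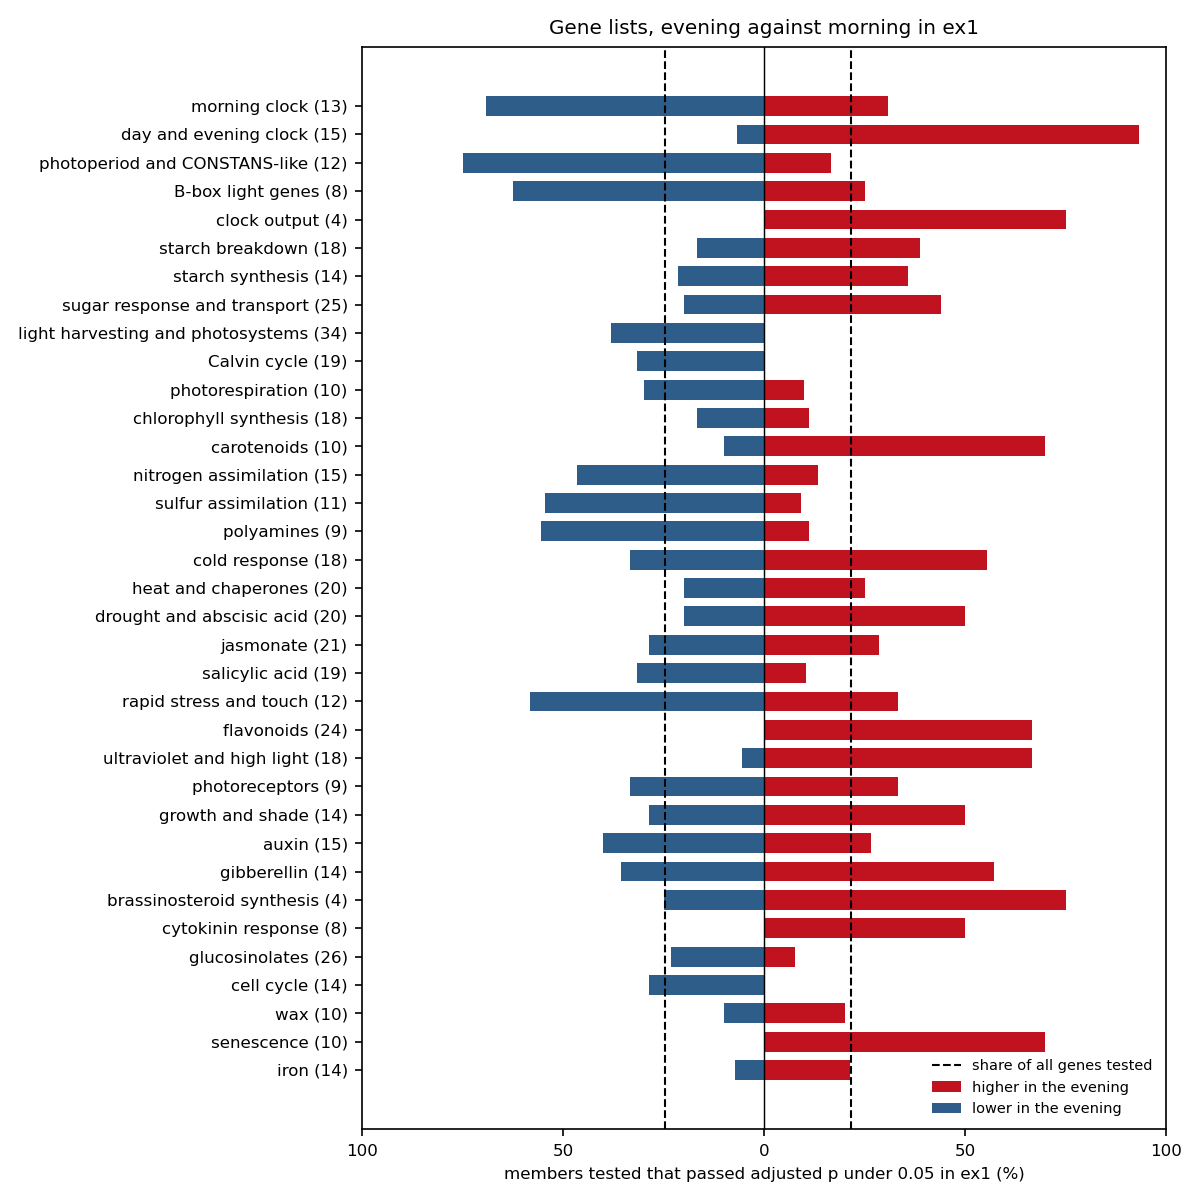
Share of the tested members of each gene list that passed adjusted p under 0.05 in ex1, with bars to the right for genes higher in the evening and to the left for genes lower in the evening. The number tested is in brackets. Dashed lines give the shares over all tested genes, 21.5% higher and 24.8% lower.

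Groups by product name were counted in the same way. Proteasome subunits gave 6 rises and 5 falls among 43 tested, cytosolic ribosomal proteins 2 and 5 among 19, and pentatricopeptide repeat proteins 53 and 66 among 236 (median -0.07), a family with 155 rises and 34 falls over ex2 and ex3. Aquaporins gave 3 rises and 13 falls among 26, against 21.5% and 24.8% of all genes. For 7 of them every evening library lay below every morning library in each accession, against 6.15% of all genes. Over ex2 and ex3 the family gave 12 rises and 8 falls. The 1 plastid ribosomal protein so named did not pass.

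Differences of the accessions ran alongside each other. Taken alone, 4803 genes passed in Bon (23.0%), 4011 in Moj (19.2%), 4891 in Vel (23.4%) and 5727 in Col-0 (27.4%), and across the 20880 genes, which are not independent, Pearson correlations between 2 accessions' differences ran from 0.694 (Col-0 and Moj) to 0.815 (Vel and Moj). Calls in Moj fell to 2449 without Moj evening replicate 2, and those in Col-0 to 3570 without Col-0 evening replicate 1. Higher calls made up 11.5% of genes in Bon, 10.1% in Moj, 12.3% in Vel and 14.8% in Col-0, and lower calls 11.5%, 9.08%, 11.1% and 12.7% in the same order. Genes called higher in all 4 numbered 1106, and genes called lower in all 4 numbered 705. Of the 9661 genes called on average, 8025 had the same sign in all 4 accessions (83.1%), as did 1175 of the 1187 with at least a 2-fold change (99.0%), counted in the same libraries. These genes were picked by the mean of the same 4 differences, so a shared sign follows in large part from the selection. Every evening library lay above every morning library in each accession for 1593 genes (7.63%) and below for 1284 (6.15%). Genes called higher in 1 accession and lower in another numbered 96.

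An F test for a dependence of the evening difference on accession was passed by 758 genes (3.63%), and by 2029 without Col-0 morning replicate 3. AT4G18650, annotated as transcription factor-like, had the smallest p (limma adjusted p 5.1e-11). It was at 4.73, 4.47 and 3.38 in Vel evening libraries against 1.34, 0.70 and 0.00 in the morning, at 2.44, 3.04 and 3.16 in Bon evening libraries against 0.51, 0.78 and 0.00, and at 0.70 or below in all Moj libraries. In Col-0 it was at 1.5 and 0.31 in the evening and 0.73, 0.00 and 0.00 in the morning, which overlap. Its Col-0 difference of 0.66 lost its call without Col-0 evening replicate 1 (0.065) or Col-0 morning replicate 2 or 3 (0.54 each), with a pseudocount of 5 (0.20) and in the ex1 libraries alone (0.66, adjusted p 0.31). AT1G72910 and AT1G72920, which encode TIR-domain proteins, had lower evenings in Moj, Vel and Col-0 and overlapped in Bon. AT1G72910 differed by -0.09 in Bon, -3.05 in Moj, -3.18 in Vel and -3.46 in Col-0, and AT1G72920 by 0.25 in Bon, -2.39 in Moj, -2.42 in Vel and -3.18 in Col-0. AT1G72910 was at 1.05, 1.42 and 1.67 in Bon evenings and 1.18, 1.49 and 1.74 in Bon mornings. In Col-0 it was at 1.48 and 2.01 in the evening and 5.40, 4.71 and 5.49 in the morning. Its Bon values, like those of AT4G18650 in Moj, were low at both times, and left little room for a fall. The processing used the TAIR10 build, that of Col-0, and whether this lowers values in other accessions was not tested. NPGR1, which encodes a calmodulin-binding protein, had 3.92, 3.93 and 3.74 in Bon evenings and 2.45, 2.22 and 2.48 in Bon mornings, and did not lie higher in the evening elsewhere (1.48 in Bon, -0.41 in Moj, -0.19 in Vel and -0.65 in Col-0). The Col-0 call of NPGR1 was lost without Col-0 evening replicate 3 (-0.55). AT4G37110, a zinc-finger gene, differed by 1.48 in Bon, 0.79 in Moj, -0.69 in Vel and -0.26 in Col-0. PYE, a bHLH regulator of iron responses, differed by -1.17 in Bon, 0.34 in Moj, 1.32 in Vel and 0.61 in Col-0, and neither Bon nor Vel overlapped between evening (1.83, 1.52 and 2.19 in Bon, 3.25, 3.82 and 3.80 in Vel) and morning (2.98, 2.96 and 3.11 in Bon, 2.42, 2.21 and 2.27 in Vel). The Col-0 call of PYE was lost without Col-0 morning replicate 1 (0.57) or 2 (0.40), or Col-0 evening replicate 1 (0.69) or 3 (0.54). It was also lost with the replicate block (0.40) and in the ex1 libraries alone (0.61). Of the 24 named rises and falls, 6 passed the F test: GA2OX1 (4.83 in Bon, 3.61 in Moj, 3.72 in Vel and 5.12 in Col-0), FKF1, AT1G71000, LUX, BEE1 and CDF2. That call was lost for GA2OX1 with a pseudocount of 0.1 (adjusted p 1). It was lost for FKF1 without Col-0 evening replicate 1 (adjusted p 0.065), in the ex1 libraries alone (0.060) and with a pseudocount of 5 (0.056). AT1G71000 lost it without Bon evening replicate 2 (0.050) or Moj evening replicate 1 (0.13), with a pseudocount of 0.1 (0.86) and in the ex1 libraries alone (0.095). LUX lost it without any one of Vel morning 2, Vel evening 1 and 3, Moj morning 2, Moj evening 2, Col-0 morning 2 and Col-0 evening 1 (0.052 to 0.29), and in the ex1 libraries alone (0.11). BEE1 lost it without any one of Bon morning 1, Bon evening 1, Moj morning 2, Moj evening 2, Col-0 morning 1 and 2 and Col-0 evening 3 (0.054 to 0.38), and with a pseudocount of 0.1 (0.056). Within the day and evening clock 3 of 15 passed, FKF1, LUX and PRR5, each with its smallest rise in Col-0 (3.01, 3.48 and 2.08). The F test call of PRR5 was not followed through the alternatives.

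Direction over the collections was mixed. Calls in ex2 were 33.0% of genes higher and 32.2% lower, and in ex3 29.7% higher and 28.6% lower. Of the 4489 genes that rose in ex1, 1404 also rose in ex2 and in ex3 (31.3%) and 676 fell in both (15.1%). Of the 5172 that fell, 1473 fell in both later collections (28.5%) and 810 rose in both (15.7%). Over all 20880 tested genes, 4404 rose in both later collections and 4025 fell in both. Genes up at least 2-fold in ex1 and under 1.2-fold in size in ex2 and ex3 numbered 96, and 56 were down so. Among the 8 most positive differences from later were also AT3G55580, of the RCC1 family, which fell by 0.56 in ex1 against 4.90 later, and AT4G34550, an F-box gene, which rose by 3.31 in ex1 and was at -0.99 later. AT3G55580 had 6.53, 6.97 and 7.32 in the evening and 7.12, 7.47 and 7.92 in the morning of ex1, and medians of 0.96 in the evening and 5.56 in the morning of ex2.

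The 16 genes with the most positive and most negative differences from later varied in which window held the larger gap to the mean of ex2 and ex3, with LZF1 and its morning gap described above. For LHY, CCA1, PRR9, AT2G46670, AT3G55580, AT4G34550 and BEE1 the evening level of ex1 was above that of ex2 and ex3, by 3.51 ± 0.12 for BEE1, 3.12 ± 0.09 for PRR9 and 6.03 ± 0.08 for AT3G55580. In the morning, the same quantities were -1.41 ± 0.11 for BEE1, -1.71 ± 0.09 for PRR9 and 1.69 ± 0.07 for AT3G55580. The anthocyanin enzymes LDOX, DFR and UGT75C1 and the acyltransferase AT1G03495 were lower in the evening of ex1 than later, by 3.67, 4.05, 3.10 and 4.05, while their morning levels differed by 0.60, -0.25, 0.62 and -0.42. NUDT21, CBF1, AT5G11070 and DIP2 stood apart in the morning, at 3.30, 4.86, 3.37 and 2.27 above ex2 and ex3, against -0.95, 0.76, -0.34 and -1.38 in the evening.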

How the data were processed

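Each of the 80 rosette libraries held RNA of 5 pooled plants, and the 22 libraries of ex1 carry the comparison. The submitters' processing notes name FastQC, HISAT2, StringTie and the TAIR10 build. For these, versions are not given in the sources used here. In 1 table, the authors deposited values of 33602 genes on a log2 scale with 1 added. The file gives no unit. That scale, and a common distribution of values shared by all libraries, were read from the values, so totals say nothing of depth, and a change of the same size in most genes could not be seen. A fold change on the log2(value + 1) scale understates the change of genes with low values.

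Values were used as deposited, although the planned test allowed for unlogged ones. Of the genes, 20880 reached 1 in 3 or more libraries and were tested. limma 3.58.1 in R 4.3.3 was fitted with 28 group means (accession, time and collection), moderated with a trend and 52 residual degrees of freedom, and p-values (two-sided) were adjusted by Benjamini-Hochberg over all genes tested, with 0.05 as the threshold. The contrasts were the mean over 4 accessions of evening minus morning in ex1, each accession alone, an F test of accession by time, and ex1 minus the mean of ex2 and ex3. The scripts were tested on simulated data. Alternatives were the ex1 libraries alone, other filters and pseudocounts, centring, no trend, a replicate block, and leaving out each ex1 library or accession.

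Members and gene lists were chosen with earlier results of these data known. Named were the 12 largest rises and falls past the threshold without overlap in any accession and with a back-transformed mean of at least 5 in the higher arm, the 8 most positive and 8 most negative differences from later with 1 sign in all accessions, the 6 smallest F test p-values, a few clock genes and members of the lists. Of the IDs, 32835 matched RefSeq TAIR10.1, from which promoters were read. The library kit does not mark strand. Python 3.11.15 with pandas 2.3.3, numpy 2.4.6 and matplotlib 3.10.9 made tables and plots.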

Additional observations from a re-analysis of the deposited data

Results flagged for a closer look

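The evening difference of ex1 differed from the mean of ex2 and ex3 for 12143 genes (58.2% of all tested), and among the 164 genes named here and tested for 148. Some of the 164 were named by this test or by their ex1 difference, which enters it, so the 148 are a description. A test of the difference between collections picked out these genes, and the labels' collection tag may mark a sampling date or an RNA extraction, which cannot be told apart. The ex1 difference minus the later one was 6.26 for LHY, 5.21 for CCA1, 4.92 for LZF1, 4.91 for BEE1, 4.83 for PRR9, 4.65 for AT2G46670, 4.34 for AT3G55580 and 4.31 for AT4G34550 (log2). It was -4.27 for LDOX, -4.25 for NUDT21, -4.10 for CBF1, -3.81 for DFR, -3.72 for UGT75C1, -3.71 for AT5G11070, -3.65 for DIP2 and -3.64 for AT1G03495.

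Accession by time, an interaction within ex1, was passed by 758 genes in limma's F test. The adjusted p was 5.1e-11 for AT4G18650, 6.1e-10 for AT1G72910, 9.3e-10 for AT1G72920, 4.9e-09 for NPGR1, 6.1e-09 for AT4G37110 and 1.8e-08 for PYE. Among the largest rises and falls it was 4e-05 for GA2OX1, 0.0083 for FKF1, 0.010 for CDF2, 0.020 for AT1G71000, 0.037 for BEE1 and 0.039 for LUX. No group held more than 3 libraries, so single libraries were not tested as outliers.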

How the results depend on the processing

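The number of genes called for evening against morning in ex1 stayed within 1.5 times of 9661 under every alternative run, from 8807 to 10132 when 1 library was left out and from 8293 to 8888 when 1 accession was. The same held for ex1 against later, with 11717 to 12265 genes when 1 library was left out, 12017 against ex2 alone, 11071 against ex3 alone and 8760 against ex4 in Col-0 and Vel. Accession by time did not hold within that range. From 758 genes it went to 451 in the ex1 libraries alone, 1492 with no filter on low values and 445 with a mean value of at least 2, and to between 570 and 2029 when 1 library was left out. Calls in Moj ran from 2449 to 4173 and calls in Col-0 from 3570 to 6848 when 1 library was left out. The cause was not tested. Of the 164 genes named, those called in ex1 whose direction turned were AT4G37110 without Bon (-0.055) and PYE without Vel (-0.071). NPGR1, at 0.058 and not called, went to -0.42 without Bon (limma adjusted p 0.00082) and 0.29 without Col-0 (0.014), both called. The 16 differences from later kept their call under all alternatives run. They were picked as the largest past that same test, with 1 sign in all accessions against ex2 and ex3. Keeping the call follows in large part from that selection and is a description. Of the 12 F test results followed through the alternatives, 5 lost their call under at least 1.

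Correlations of deviations between same-numbered evening and morning ex1 libraries ran from 0.002 to 0.383, and 5 of 10 pairs were over 0.1. Pairing was taken to need all 10 over 0.1, so the numbers were not treated as pairs, although every value was above 0. With the replicate block 9064 genes passed in ex1, 11800 for ex1 against later and 500 for accession by time, and Col-0 gave 4205 against 5727. With that block light-harvesting genes gave 8 falls of 34, salicylic acid genes 4 rises and 5 falls, starch synthesis genes 3 and 3, photorespiration genes 1 and 1 and iron genes 1 and 1. It also gave F test adjusted p 0.18 for LUX and 0.11 for BEE1, and ex1 adjusted p 0.10 for PYE. In the ex1 libraries alone starch breakdown gave 6 rises and 5 falls, chlorophyll synthesis 2 and 5, carotenoids 7 and 2 and wax 2 and 2. No depth is known for these values, so what depth limits could not be given, and groups of 2 or 3 libraries limit the precision.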
